A study of Mus musculus with 2 samples.

Results

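The stretch of mouse chromosome 3 around Mab21l2, a gene nested within an intron of Lrba, was described from Rad21 ChIP-chip data. Its members were chosen by position alone: probes with their midpoint from -502.2 to 497.8 kb of the Mab21l2 start (chromosome 3, position 86352205 in mm9), summarised in fixed 1 kb windows that held at least 3 probes. This gave 844 windows of 14948 in the whole series, from 9765 of 170542 probes. The experiment measured Rad21 by chromatin immunoprecipitation followed by hybridisation to tiling arrays, a method in which DNA recovered with an antibody is labelled with one dye, total input DNA with another, and both compete for the same probes. The cells were RAG, a mouse renal adenocarcinoma line from the BALB/c strain that the study used as its Pax6-OFF line. The series holds 1 group of 2 arrays, replicate 1 and replicate 2, each from its own flask of cells, with crosslinked chromatin, no other treatment and no second cell line. RAG is 1 tumour-derived line, and with no expression measured on these arrays its identity was not checked here.

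Rad21 is the subunit that closes the cohesin ring, the complex that holds DNA strands together and is thought to extrude chromatin loops. Cohesin often accumulates where the DNA-binding protein CTCF sits on its motif, and a loop is favoured where the motifs at its ends point towards each other. Mab21l2 is needed for eye development and is transcribed from the strand opposite to Lrba, whose large BEACH-domain protein acts in vesicle trafficking.

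The ratio used throughout is log2 Cy3 over Cy5, centred on the median of all non-control spots of each array. The labels put the ChIP DNA in Cy5 and the input in Cy3 on both arrays, with no dye swap, so this ratio runs opposite to that description. The published methods give the same order of dyes for the study's NimbleGen arrays. They name no dyes for the Agilent arrays used here. The rows of the log2 table the authors deposited were matched to probes by order, with 3 probes left out, so this match is inferred. On that match the table runs as Cy3 over Cy5. Its correlation across probes was r = 0.932 on each array, against a running median of that ratio over neighbouring probes of the array. With 2 or 4 probes left out r was 0.747 to 0.755. Which dye carried the ChIP DNA is therefore not settled, and each result is given by dye. If the labels hold, the ratio of ChIP to input has the opposite sign to every value below.

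Of the 11 regions found higher in Cy3 across the locus, 6 had a match to the CTCF core motif in the 500 bp on either side of the summit. The motif is a 12-letter pattern, searched on both strands and allowed 1 mismatch. Among all tiled 1 kb windows 7.73% held such a match. For each of these 6 regions the match nearest its summit is printed. The Sh3d19 intron 10 region had a second match at 428 bases from the summit, on the - strand with 1 mismatch. Both of its matches lay past the end of the region. The Lrba intron 58 region also had a second match, given below. Each sequence reads 5′ to 3′ on the strand of its match, from mm9 (NCBIM37), with the match in capitals, and distances from the summit are negative towards lower coordinates. They come from intron 10 of Sh3d19 (chr3:85921016-85921147, - strand, an exact match at 199 bases), a Sh3d19 UTR (chr3:85933863-85933892, - strand, -9 bases), Lrba intron 58 (chr3:86565713-86565844, - strand, -6 bases), Dclk2 intron 15 (chr3:86592738-86592869, + strand, -50 bases), Dclk2 intron 8 (chr3:86616719-86616850, - strand, -97 bases) and the intergenic sequence beyond Cd1d1 (chr3:86834903-86835034, + strand, 434 bases).
Sh3d19 intron 10: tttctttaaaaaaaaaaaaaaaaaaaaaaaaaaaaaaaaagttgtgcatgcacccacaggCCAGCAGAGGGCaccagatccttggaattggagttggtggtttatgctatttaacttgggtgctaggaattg
Sh3d19 UTR: aaggagaggCCCCTAGATGGCggcagagtt
Lrba intron 58: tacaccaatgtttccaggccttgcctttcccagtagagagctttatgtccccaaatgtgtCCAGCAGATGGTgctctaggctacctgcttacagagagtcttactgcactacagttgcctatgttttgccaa
Dclk2 intron 15: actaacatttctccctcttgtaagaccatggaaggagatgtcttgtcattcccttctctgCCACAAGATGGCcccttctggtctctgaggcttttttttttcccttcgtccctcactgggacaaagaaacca
Dclk2 intron 8: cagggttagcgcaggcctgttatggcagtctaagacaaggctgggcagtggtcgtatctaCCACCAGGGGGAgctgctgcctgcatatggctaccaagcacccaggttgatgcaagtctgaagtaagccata
beyond Cd1d1: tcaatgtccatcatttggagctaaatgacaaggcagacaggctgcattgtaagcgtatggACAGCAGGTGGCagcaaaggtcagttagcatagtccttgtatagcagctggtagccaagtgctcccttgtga

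The region with the highest ratio of the locus, between Dclk2 and Cd1d2, had no such match that close to its summit. An exact match on the - strand lay at -1418 bases inside the region (chr3:86779218-86779349). With 2 mismatches allowed, 10 of the 11 regions had a match that close to the summit, and 49.8% of all tiled windows held one. An exact match was found in 0.528% of all tiled windows.
near Cd1d2, exact: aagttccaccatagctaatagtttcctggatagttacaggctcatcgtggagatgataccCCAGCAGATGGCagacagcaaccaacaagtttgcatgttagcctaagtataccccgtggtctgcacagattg

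The locus was well measured on both arrays. Of its spots, 95.55% on replicate 1 and 88.01% on replicate 2 were well above background in both channels, and 92 and 60 spots were saturated. The median SD of a window between the arrays was 0.13 on the log2 scale. Across the 844 windows the arrays correlated with r = 0.714 and rho = 0.573, and without the windows in regions r was 0.528; this is a description across neighbouring windows, which share libraries and base composition. The number of arrays limits the precision of every value.

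Windows higher in Cy3 were few and fell in small groups on either side of Mab21l2, whereas windows higher in Cy5 were many and lay mostly within Lrba. By limma with Benjamini-Hochberg adjustment over all 14948 windows, 26 windows of the locus (3.08%) were higher in Cy3, against 3.61% of all windows tested, so their share is near the background. Higher in Cy5 were 126 windows (14.93%), against 5.1% of all windows tested and 4.52% of those outside the locus. The Cy5 count moved widely with the processing. It was 19 with the trend on GC content removed, 29 with loess, 37 with the deposited table and 304 with mode centring, and it ran between these under the other choices of background, probes and window grid. With a trended and robust variance prior it was 0, with 288 windows at an unadjusted p under 0.05, while 346 were at that level with the constant prior.

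The windows higher in Cy3 lay further from 0. Their mean ratios ran from 0.44 to 2.36 with a median of 0.87, and 11 were at 1 or more on the log2 scale. Windows higher in Cy5 ran from -0.40 to -1.03 with a median of -0.53, and 1 was at -1 or less. Of the 26 windows higher in Cy3, 22 overlapped one of the 11 regions.

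**Figure D1:**
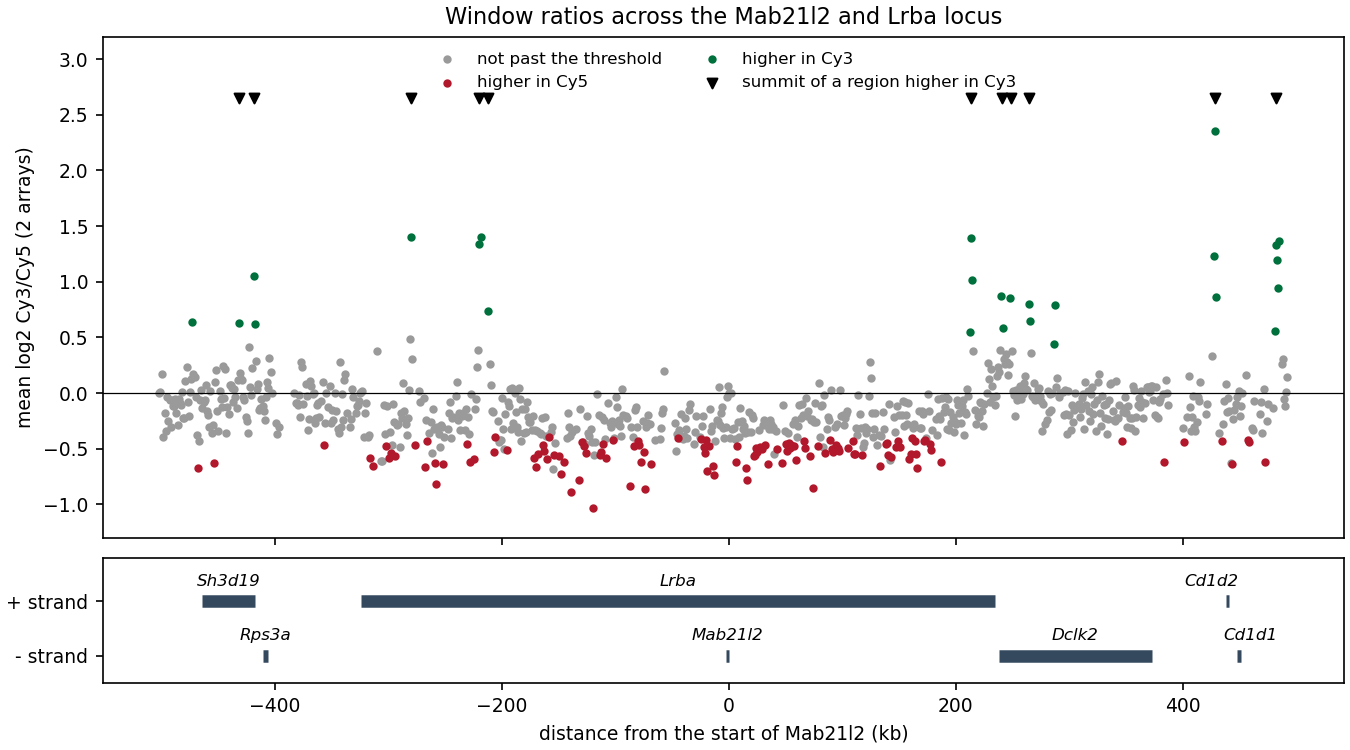
Mean log2 Cy3/Cy5 of the 2 arrays for each 1 kb window (upper panel, points) against distance from the Mab21l2 start in kb, with gene bodies by strand below. Green points passed the limma threshold higher in Cy3 and red points higher in Cy5, and triangles mark the 11 regions, none of which lies between -211.3 and 212.5 kb.

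The regions were called on the running median of both arrays within 400 bp, at a threshold of 0.64 set from the whole array, and are a description of where the ratio was high; they were chosen for their values and carry no test. Over the array 209 such regions were found and 2.15% of probe positions lay inside one. The 11 of the locus, with a median length of 1114 bp and 6 to 40 probes each, covered 1.474% of its bases. This is a share of bases and cannot be set against the share of probe positions over the array. No region higher in Cy5 was found in the locus, at a threshold of -1.11. That threshold was set by reflecting the Cy3 side of the ratio, which holds the regions higher in Cy3. It was stricter than the 0.64 used for Cy3, so the counts of regions by dye cannot be compared. The rule for naming took the 10 with the highest running median, so the weakest, in Dclk2 intron 12, was added after its values were seen.

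The regions fell into 3 groups along the locus: 5 on the lower side of Mab21l2, in Sh3d19 and the 5′ part of Lrba, 4 at 213.6 to 264.7 kb, around the convergent ends of Lrba and Dclk2, and 2 beside the Cd1d genes. Distances here are from the Mab21l2 start, negative on the lower side.

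Sh3d19, which encodes an SH3-domain adaptor that binds ADAM proteases, held 2 regions. In its intron 10 (chr3:85920554-85920913) the mean ratio over the region was 0.80 on replicate 1 and 1.15 on replicate 2, a mean of 0.98 ± 0.25 (SD, n = 2). In its UTR near the far end of the gene (chr3:85933318-85934431) the values were 1.18 and 0.99, a mean of 1.08 ± 0.14 (SD, n = 2). The arrays stood in opposite order in these neighbouring regions, and the intron 10 region was called on replicate 2 alone but not on replicate 1 alone.

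Lrba, with 62 exons in the transcript used, held 4 regions, of which 3 lay on its 5′ side of Mab21l2. In intron 2 (chr3:86071569-86072276) the ratio was 1.04 and 1.1, a mean of 1.07 ± 0.04 (SD, n = 2), from 7 probes. Intron 22 held a pair of regions, the stronger (chr3:86131967-86133222) at 1.20 and 1.39, a mean of 1.29 ± 0.13 (SD, n = 2). Its neighbour (chr3:86140339-86140903) was at 0.75 and 1.11, a mean of 0.93 ± 0.26 (SD, n = 2), and was not called on replicate 1 alone.

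None of these 3 Lrba regions had a motif match at 1 mismatch. On the 3′ side of Mab21l2, intron 58 (chr3:86564736-86567015) was at 1.17 and 1.11, a mean of 1.14 ± 0.04 (SD, n = 2). It held 2 motif matches, at -6 and 25 bases from the summit, both on the - strand.

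Dclk2, which encodes a doublecortin-like kinase that binds microtubules and is read from the - strand, held 3 regions towards its 3′ end. Intron 15 (chr3:86592285-86593484) was at 1.05 and 0.77, a mean of 0.91 ± 0.19 (SD, n = 2), and intron 8 (chr3:86616733-86617400) at 1.34 and 1.16, a mean of 1.25 ± 0.12 (SD, n = 2). The weakest region, in intron 12 (chr3:86600454-86601053), was at 0.93 and 0.73, a mean of 0.83 ± 0.14 (SD, n = 2), with a summit running median of 0.76. Replicate 1 was the higher array in all 3, yet the intron 12 region was not called on replicate 1 alone, where the threshold rose to 0.93 from 0.64.

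Cd1d2 and Cd1d1 encode CD1d molecules, which present lipids to natural killer T cells, and the regions on this side of the locus were intergenic. The region 9.81 kb from the Cd1d2 start (chr3:86778725-86781212) was at 1.52 and 1.56, a mean of 1.54 ± 0.03 (SD, n = 2). Both of its array values lay above both array values of the other 10 regions, which reached at most 1.39. Its summit window was at 2.36 ± 0.19 (SD, n = 2), with an adjusted p of 0.000218 by limma, the highest window of the locus.

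The last region (chr3:86834446-86837859), 31.2 kb from the Cd1d1 start, was the longest at 3414 bp. Its ratio was 1.34 and 1.14, a mean of 1.24 ± 0.14 (SD, n = 2). It held 2 motif matches on the + strand, one at 434 bases from the summit and an exact one at 2984 bases. For the remaining order of the regions, the SDs of neighbours overlapped.

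**Figure D2:**
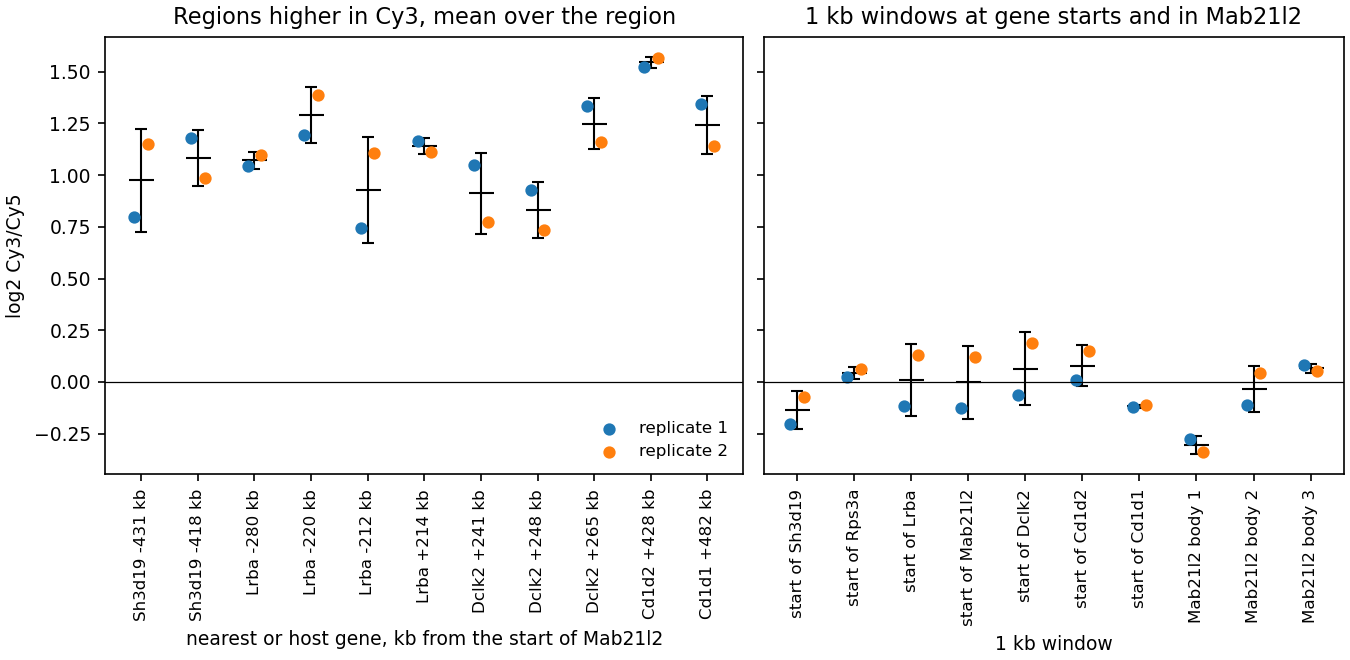
Log2 Cy3/Cy5 of each array (points) with the mean and SD of the 2 arrays (bars), over the 11 regions (left) and over 1 kb windows at gene starts and in Mab21l2 (right). Every region mean is at 0.83 or more, chosen so by the calling rule, while the start windows lie between -0.14 and 0.08.

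In both arrays the ratio was concentrated at the summit. Averaged over the 11 regions, the bin from 0 to 250 bp past the summit was at 1.47 on both replicate 1 and replicate 2. By 500 to 750 bp the averages were 0.67 and 0.69, over 9 regions, and at 2000 to 2250 bp they were 0.24 and 0.28, over 6. The fall with distance follows in part from placing each profile on its own summit.

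**Figure D3:**
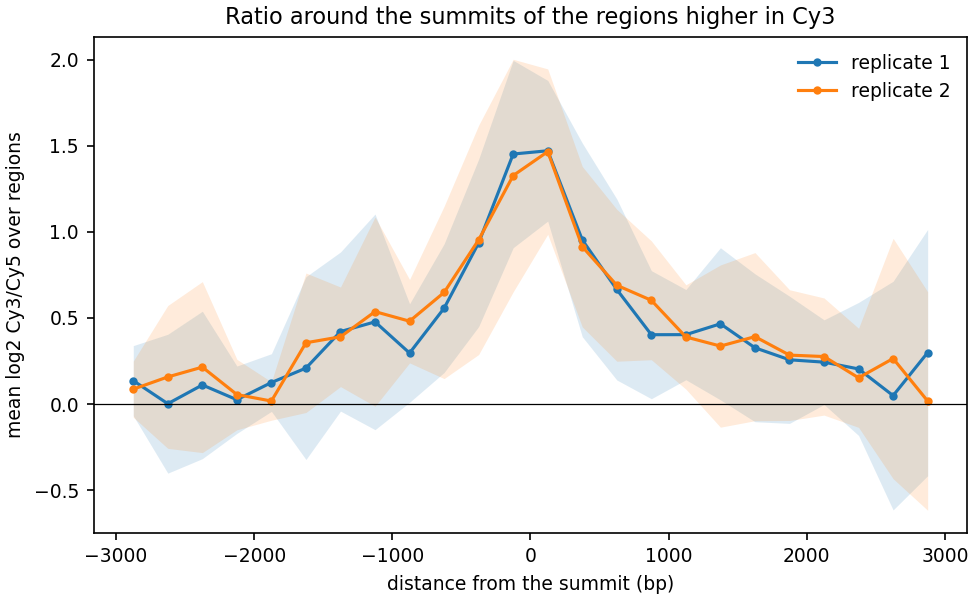
Mean log2 Cy3/Cy5 in 250 bp bins against distance from the summit in bp, averaged over the regions with probes in the bin, for each array (lines). Bands show the SD over regions; both arrays peak in the bins beside the summit, at 1.33 to 1.47.

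The channels were also taken apart. Against the median signal of the locus in the same channel, the Cy3 signal was above 0 in all 11 regions on both arrays, from 0.11 in Lrba intron 2 on replicate 2 to 3.53 in Dclk2 intron 12 on replicate 1 (log2). The Cy5 signal was below the locus median in Sh3d19 intron 10, at -0.77 and -0.84, and in Lrba intron 2, at -0.82 and -1.08. In the other 9 regions it was above the median, by 0.25 to 2.47, and less so than Cy3. Dclk2 intron 12 was the brightest in both dyes, at 3.53 and 3.30 in Cy3 and 2.40 and 2.47 in Cy5. GC content ran from 31.9% in the weaker Lrba intron 22 region to 52.8% in Dclk2 intron 15, so the regions were not of one base composition.

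Windows with a motif match stood apart from the rest of the locus in ratio. The 64 windows with a match had medians of 0.02 on replicate 1 and 0.05 on replicate 2, and 11 of them (17.2%) were higher in Cy3. The 780 without one had medians of -0.25 and -0.15, and 15 (1.92%) were higher in Cy3. Read the other way, 42.3% of the 26 windows higher in Cy3 held a match, against 2.38% of the 126 higher in Cy5, 7.23% of the 692 not past the threshold and 7.58% of the whole locus. The same shares over all tiled windows were 34.6% and 3.93%. These are counts of letters, with no test, and base composition differs between the classes: the median probe GC content was 41.4% in windows higher in Cy3, 32.7% in windows higher in Cy5 and 38.8% in the others.

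Outside the regions, 4 windows were higher in Cy3, named here after their values were seen. One lay in intergenic sequence at -472.7 kb from the Mab21l2 start, with ratios of 0.62 and 0.65, and held a motif match. A neighbouring pair lay in a Dclk2 intron, at 0.49 and 0.40 and at 0.64 and 0.95, the second with a motif match. The last, at 0.53 and 0.59, was next to the region beyond Cd1d1. All 4 were above 0 on both arrays.

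Mab21l2 itself lay in a long stretch with no region. From the weaker Lrba intron 22 region to the Lrba intron 58 region, 423.8 kb (chr3:86140903-86564736) held none, while the next longest distance between neighbouring regions was 161 kb. The gene was 208.6 kb from the nearest region on the lower side and 212.5 kb from the nearest on the upper side. Of the 374 windows in the stretch, 0 were higher in Cy3 by limma and the highest mean was 0.27. The stretch was drawn between regions called on these same ratios, so this follows in part from its limits. Lrba spanned the whole stretch.

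Under other settings the stretch was not always without a region. With normexp background correction 4 were called in it, with loess 1, and with the trend on GC content removed 1, against 0 under the other 12 settings. The region called by all 3 of these (chr3:86295303-86295722), at -56.7 kb from the Mab21l2 start, had a running median of 0.32 in the ratio used here, under the threshold of 0.64. The 3 others called with normexp had running medians of 0.03, -0.26 and -0.37 in that ratio.

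The stretch held most of the windows higher in Cy5. There were 100 of 374 (26.7%), against 26 of 470 (5.53%) in the rest of the locus. The median ratio was -0.37 on replicate 1 and -0.27 on replicate 2, and -0.12 and -0.06 in the rest. Both arrays were lower inside the stretch. The rest of the locus holds all 11 regions, so this difference follows in part from how the stretch was drawn. Motif matches were found in 11 of its windows (2.94%), the highest of which had a mean of 0.03.

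Base composition moved with this difference. Median probe GC content was 34.8% in the stretch and 40.9% in the rest, and over the locus windows the ratio rose with probe GC, with rho = 0.66 on replicate 1 and 0.50 on replicate 2. With the trend on GC content removed within each array, 13 windows in the stretch and 6 outside were higher in Cy5. The medians were then -0.17 and -0.14 inside, against -0.04 and -0.01 outside, so the order was kept on both arrays at a smaller size. The part of base composition in the windows higher in Cy5 was not tested beyond this.

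**Figure D4:**
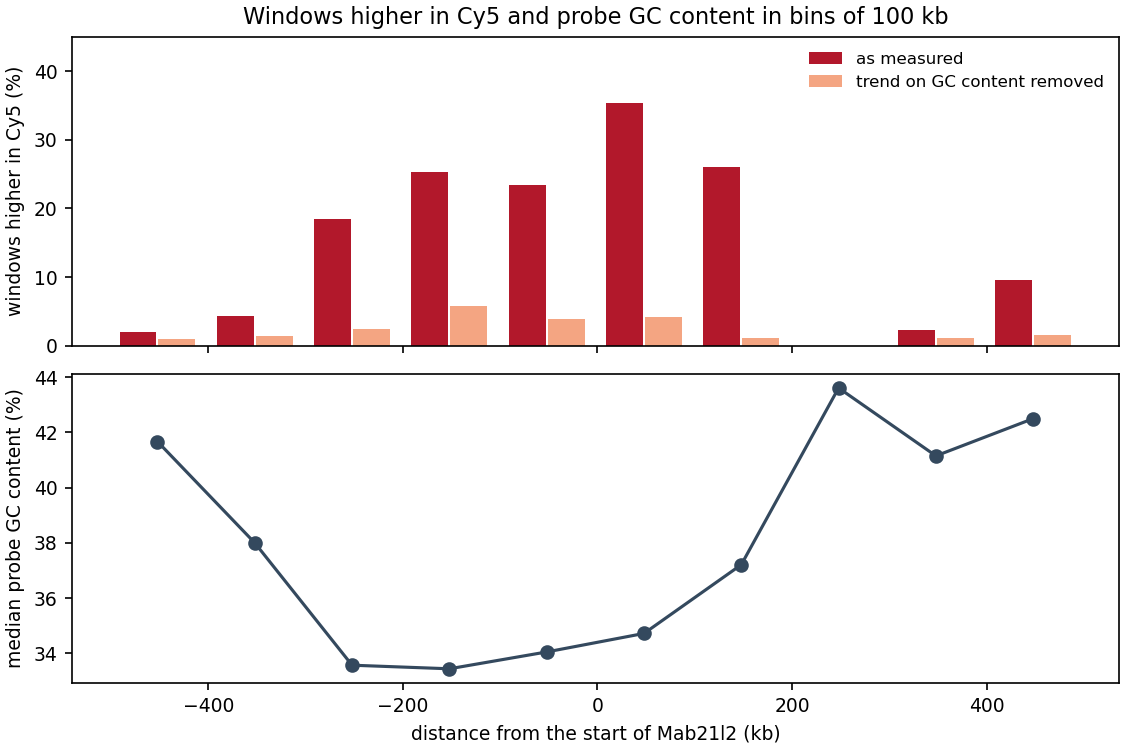
Share of 1 kb windows higher in Cy5 (upper panel, bars, %) as measured and with the trend on GC content removed, and median probe GC content (lower panel, %), in 100 kb bins against distance from the Mab21l2 start. The share peaks at 35.4% in the bin that starts at Mab21l2, and the lowest GC content, 33.4%, lies in the bin from -202.2 to -102.2 kb.

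Along the locus in bins of 100 kb, the share of windows higher in Cy5 was 2.02% at the Sh3d19 end, rose to between 18.5% and 35.4% in the 5 bins from -302.2 to 197.8 kb, and was 0% of 95 windows in the bin that holds the ends of Lrba and Dclk2. That last bin had the highest GC content, 43.6%, and 10 of the 26 windows higher in Cy3. With the GC trend removed, those 5 bins held 2, 5, 3, 4 and 1 windows higher in Cy5, in order along the locus. By annotation, 109 of 555 intron windows (19.6%) were higher in Cy5, against 8 of 111 exon windows (7.21%) and 9 of 171 intergenic windows (5.26%). Intron windows also had the lowest median probe GC content of these 3 classes, 36.1% against 40.0% and 41.3%, and its part in their share was not tested.

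Close to Mab21l2 the picture was the same. Within 25 kb of the gene lay 52 windows, of which 0 were higher in Cy3 and 16 higher in Cy5, or 3 with the GC trend removed. Their medians were -0.38 and -0.34, and their means ran from -0.78 to 0.07.

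The 4 windows that overlap Mab21l2 (chr3:86349503-86352205, - strand) did not pass the threshold. The window at its 3′ end was at -0.28 and -0.34, a mean of -0.31 ± 0.04 (SD, n = 2), with an adjusted p of 0.0949 by limma. It passed, higher in Cy5, with no background correction (adjusted p = 0.0291) and with mode centring (adjusted p = 0.0303), while its ratio was 0.09 with normexp (adjusted p = 0.62 by limma), 0.02 with loess (adjusted p = 0.924) and -0.01 with the GC trend removed. Its side of 0 therefore turned with the background correction and the normalisation, and its probe GC content was 27.7%.

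The next window, centred on UTR, was at -0.11 and 0.05. The window after it, centred on exon sequence, was at 0.08 and 0.05. The window at the start of the gene was at -0.13 and 0.12, a mean of 0.00 ± 0.18 (SD, n = 2), with an adjusted p of 0.996 by limma. The arrays lay on opposite sides of 0 there, and no motif match was found in any of the 4. This window also holds the start of a short Lrba transcript, which cannot be told apart from Mab21l2 at this resolution.

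None of the 7 windows at the starts of protein-coding genes passed the threshold, with adjusted p from 0.425 to 0.996 by limma, and none held a motif match. Lrba was at -0.11 and 0.13 and Dclk2 at -0.06 and 0.19, with arrays on opposite sides of 0. Sh3d19 was at -0.20 and -0.07 and Cd1d1 at -0.12 and -0.11. Rps3a, which encodes a small-subunit ribosomal protein, was at 0.02 and 0.06, and Cd1d2 at 0.01 and 0.15. With normexp the means at Rps3a, Lrba and Dclk2 were -0.03, -0.06 and -0.01, on the other side of 0 from the ratio used here. A p above the threshold on 2 arrays does not show that Rad21 was absent from these starts.

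The 5 windows with the lowest mean ratios among those higher in Cy5 all lay in Lrba introns within the stretch around Mab21l2. In intron 41 a window was at -1.0 and -1.06, a mean of -1.03 ± 0.04 (SD, n = 2), with an adjusted p of 0.00113 by limma, from 3 probes. With only probes well above background this window no longer held 3 probes and had no value. In intron 40 the values were -0.94 and -0.85. In intron 42 a pair of windows was at -1.0 and -0.73 and at -0.98 and -0.70, the second from 3 probes. In intron 49 the arrays were at -0.49 and -1.22, a mean of -0.86 ± 0.51 (SD, n = 2), so that replicate 2 set most of this value.

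With the GC trend removed these 5 lay at -0.61 to -0.70, and the intron 49 window no longer passed, at an adjusted p of 0.119. That window also failed to pass with normexp (-0.32), loess (-0.51), probes well above background only (-0.27) and the deposited table (-0.61), with adjusted p from 0.053 to 0.176 by limma. With the trended and robust prior none of the 5 passed, with adjusted p from 0.116 to 0.129 by limma. The intron 41 window was at -0.24 with normexp background correction, with an adjusted p of 0.146.

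Set beside the other 10 tiled segments of the array, the locus had the lowest median ratio, the highest share of windows higher in Cy5 and the lowest probe GC content, 37.7%. Its median was -0.24 on replicate 1 and -0.14 on replicate 2, against -0.05 and -0.04 over all windows outside it. Next in each of these orders was a segment of chromosome 2 (chr2:79050116-79599962). Its medians were -0.18 and -0.13, near those of the locus on replicate 2. Of its windows 8.3% were higher in Cy5, and its probe GC content was 38.6%. With 1 group of 2 arrays this difference between segments has no test, and these segments share both libraries. The locus held 11.06 regions higher in Cy3 per Mb, the fifth highest of the 11 segments, which ran from 8.00 to 42.5.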

How the data were processed

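Rad21 ChIP DNA and input DNA from RAG cells, both amplified and reamplified, were hybridised together on 2 Agilent tiling arrays. The intensities the authors deposited are output of Feature Extraction 10.5.1.1 (per the file headers), background-subtracted and dye-normalised, beside unprocessed spot and background intensities and 0 or 1 quality marks. The log2 table the authors deposited was made with Ringo, whose parameters are not given in the sources used here; its scale and direction were matched to the scanner ratio, and its centring is unknown. Positions are mm9 per the file headers, and the sequence and annotation (NCBIM37, GENCODE M1) are of that build. No columns of other samples were present.

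Log2(Cy3/Cy5) of the processed intensities was centred on the median of 175053 non-control spots, 27 outlier spots were dropped, and probe copies were averaged. No loess was applied. Windows of 1000 bp with at least 3 probes were tested against 0 with limma 3.58.1 in R 4.3.3, two-sided, with Benjamini-Hochberg adjustment over all 14948 windows and a threshold of 0.05. P-values measure only the spread between these 2 arrays. Regions were called in Python 3.11.15 by a Ringo-type rule: running median within 400 bp (at least 5 values), a cutoff at quantile 0.99 of a null distribution obtained by reflecting the lower side about its mode, a minimum of 3 positions, and joining of positions under 600 bp apart. For regions higher in Cy5 the sign of the ratio was turned first. The side reflected was then the one with the regions higher in Cy3. Named were the 10 regions with the highest running median, the 5 lowest windows higher in Cy5, the gene-start windows and the windows over Mab21l2. The locus, its members and these lists were chosen with earlier results of these data known. Alternatives changed background correction, normalisation, centring, probe filters, GC trend, source of values, windows, calling parameters, variance prior and motif mismatches; both steps were checked on simulated data.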

Additional observations from a re-analysis of the deposited data

How the results depend on the processing

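No value past the threshold in the ratio used here changed its direction. Means near 0 that passed under no setting (the starts of Rps3a, Lrba and Dclk2, and other windows over Mab21l2) changed sign under some. The window at the 3′ end of Mab21l2, at -0.31, did not pass in the ratio used here. It passed higher in Cy5, at -0.39, with no background correction and with mode centring. With normexp it was at 0.09 and with loess at 0.02, and did not pass. Windows higher in Cy3 numbered 26, and 43 with 500 bp windows; the other settings gave counts within 1.5 times. Windows higher in Cy5 numbered 126, and 59 with normexp, 200 with no background correction, 29 with loess, 304 with mode centring, 47 with only probes well above background, 19 with the GC trend removed, 37 with the deposited table, 216 with 500 bp windows, 74 with windows shifted by 500 bp and 0 with a trended and robust prior. Regions higher in Cy3 numbered 11, and 17 with normexp, and 8 to 12 on either array alone; regions higher in Cy5 numbered 0, 187 at a null quantile of 0.95, and 2 to 6 on either array alone. The locus median was -0.20, and -0.10 with normexp, -0.10 with loess, -0.28 with mode centring, -0.08 with the GC trend removed, and -0.24 to -0.14 on either array alone. Regions with a CTCF core motif numbered 6, 1 with 0 mismatches, 10 with 2, and 7 when whole regions were searched as well, a setting chosen after seeing the data. The cause of these moves was not tested. Of the 11 regions, 8 were found again under all 15 settings; those in Sh3d19 intron 10 and Dclk2 intron 12 were missed at the stricter null quantile and without replicate 2, and the weaker one in Lrba intron 22 without replicate 2. Of the other values and settings, 269 stayed on their side of the threshold or moved by less than the spread between arrays, 17 moved further, 2 gained a call and 11 lost it. No paired analysis was possible because the series has 1 group. Each array lies on its own slide, so the slide could not be fitted as a block, and window counts on 1 array have no residual degrees of freedom and were not run. Spots not well above background, more of them on replicate 2, limit the dim windows.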
